A study of Mus musculus with 2 samples.

Results

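The 78 mitochondrial ribosomal protein genes of the mouse were examined in DNase-seq data from muscle, at their promoters and at the starts they share with neighbouring genes. They are the protein-coding genes of GENCODE release M21 whose symbols begin with Mrpl or Mrps followed by a digit, out of 21853 protein-coding genes with at least 1 coding transcript. Of the 78, 49 carry an Mrpl symbol, for the large subunit, and 29 an Mrps symbol, for the small subunit. They lie on 17 chromosomes, with 11 on chromosome 11 and 8 on chromosome 17, and none on X or Y.

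DNase-seq sequences the ends of fragments cut out of nuclei by DNase I and so maps open chromatin. The tissue was gastrocnemius, a calf muscle, from male B6CASTF1/J mice, a hybrid strain with CAST alleles beside those of the B6 reference genome, at an age of 10 days. There was 1 group with 2 libraries, biological replicates 1 and 2, both from the same donor record, and the labels name 3 males per sample without saying whether their tissue was pooled. No condition could be compared, and how far the 2 libraries differ shows only the spread between these samples, which may be technical.

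Mitochondria translate the few proteins encoded by their own DNA, all of them core subunits of the respiratory chain and the ATP synthase, on a ribosome of their own. Its RNA comes from mitochondrial DNA, whereas all of its proteins are encoded in the nucleus, made in the cytosol and imported. Many of them have bacterial counterparts, and others are found in mitochondria only. Muscle fibres rely on this ribosome because their oxidative metabolism needs the respiratory chain.

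Each gene's promoter was taken as 500 bp upstream and downstream of each start of its coding transcripts, and the promoter's value is that of the highest peak overlapping this stretch. A promoter counted as open in a library when at least 1 bp of it lay in a peak. The value is the authors' signal, scaled to library depth. Footprints are short stretches protected from DNase I inside open chromatin, and they were deposited as positions only. Consensus words, the short base strings that known transcription factors prefer, were searched on both strands within 150 bp of the start of each gene's principal transcript. A word counted as lying in a footprint when a footprint shared at least 50% of its bases. A word is a string of letters and not a binding site, and other proteins can leave a footprint over it.

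The words of NRF1, a transcription factor known for activating nuclear genes of mitochondrial proteins, lay in footprints of both libraries at 11 of the 78 promoters, or 14.1%, against 19.8% of respiratory chain genes, 9.39% of CpG-rich promoters and 4.86% of all protein-coding genes. The NRF1 word was GCGCA and GCGC separated by 1 free base. The sequences of 7 of these promoters are shown as examples, and Mrpl45 holds 3 copies, all of them in footprints of both libraries. They are written 5′ to 3′ along the gene's strand in GRCm38.p6, with the NRF1 word in capitals, and at Mrpl57 the ETS and BANP words as well.
Mrpl45 (chr11:97315586-97315745, plus strand): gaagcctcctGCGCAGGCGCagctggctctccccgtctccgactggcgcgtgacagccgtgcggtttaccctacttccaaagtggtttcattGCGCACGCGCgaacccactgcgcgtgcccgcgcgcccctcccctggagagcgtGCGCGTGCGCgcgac
Mrpl17 (chr7:105811090-105811169, minus strand): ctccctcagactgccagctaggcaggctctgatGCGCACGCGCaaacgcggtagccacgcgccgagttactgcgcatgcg
Mrpl44 (chr1:79775948-79776027, plus strand): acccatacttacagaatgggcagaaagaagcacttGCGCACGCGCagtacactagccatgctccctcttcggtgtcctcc
Mrpl12 (chr11:120484533-120484612, plus strand): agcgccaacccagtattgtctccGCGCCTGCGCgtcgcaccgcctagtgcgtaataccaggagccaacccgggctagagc
Mrpl9 (chr3:94443265-94443344, plus strand): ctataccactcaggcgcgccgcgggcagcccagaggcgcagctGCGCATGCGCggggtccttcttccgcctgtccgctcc
Mrps9 (chr1:42851183-42851262, plus strand): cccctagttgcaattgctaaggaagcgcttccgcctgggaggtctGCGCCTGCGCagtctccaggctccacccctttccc
Mrpl57 (chr14:57826154-57826263, plus strand): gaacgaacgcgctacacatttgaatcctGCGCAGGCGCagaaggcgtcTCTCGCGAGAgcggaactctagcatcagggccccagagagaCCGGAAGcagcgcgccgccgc

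The commonest word was that of the ETS family, CCGGAAG or its reverse complement CTTCCGG, which factors such as GABPA bind and which is known from many promoters without a TATA box. Words of this kind lay in footprints of both libraries at 19 of the 78 promoters, or 24.4%. The share was 11.6% of respiratory chain genes, 6.84% of CpG-rich promoters and 3.62% of all protein-coding genes. Of these 19, 4 are shown with the ETS word in capitals, as examples, Mrpl43 with 2 such words and the other 3 with theirs within 30 bp before the start. A second ETS word at Mrpl58 was in no footprint and stays in lower case. At Mrps18c the capitals also mark the E-box CACGTG, with 1 base between it and the ETS word.
Mrpl43 (chr19:45006433-45006522, minus strand): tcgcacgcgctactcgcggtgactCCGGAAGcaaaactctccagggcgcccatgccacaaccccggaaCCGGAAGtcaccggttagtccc
Mrps18c (chr5:100798577-100798636, plus strand): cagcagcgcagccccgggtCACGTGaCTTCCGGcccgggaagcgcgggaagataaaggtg
Mrps35 (chr6:147042704-147042773, plus strand): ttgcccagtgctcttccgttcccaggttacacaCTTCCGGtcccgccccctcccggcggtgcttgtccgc
Mrpl58 (chr11:115403692-115403761, plus strand): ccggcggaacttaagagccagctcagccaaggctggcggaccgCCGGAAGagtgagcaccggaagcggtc

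The YY1 word AAGATGGC lay in footprints of both libraries at 4 promoters, each time just after the start. That is 5.13% of members, against 5.81% of respiratory chain genes, 1.55% of CpG-rich promoters and 0.783% of all. The word holds the letters of a start codon, ATG, and these 4 stretches are shown with it in capitals.
Mrpl37 (chr4:107066822-107066851, minus strand): ctgcacgggcaAAGATGGCggcgtccaggt
Mrpl42 (chr10:95501904-95501933, minus strand): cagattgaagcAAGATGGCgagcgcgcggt
Mrps10 (chr17:47368893-47368922, plus strand): atcagggcaccAAGATGGCggcgcgcgcag
Mrps18a (chr17:46111004-46111033, plus strand): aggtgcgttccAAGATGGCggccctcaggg

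Rarer words lay in footprints of both libraries as well, and 2 promoters are shown with them. At Mrpl50 the capitals mark the word of ZNF143, ACTACA and TCC separated by 2 free bases, and the NFY word AGCCAAT, which is in reverse complement here. At Mrpl16 they mark the cAMP response element TGACGTCA.
Mrpl50 (chr4:49521084-49521183, minus strand): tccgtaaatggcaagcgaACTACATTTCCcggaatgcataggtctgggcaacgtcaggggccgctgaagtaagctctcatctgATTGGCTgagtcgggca
Mrpl16 (chr19:11770331-11770400, plus strand): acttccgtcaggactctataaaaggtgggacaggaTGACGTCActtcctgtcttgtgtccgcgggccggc

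All 78 promoters were open in both libraries, 100% of them, against 66.0% of the 21853 protein-coding genes, or 14419. Promoters rich in CpG dinucleotides are usually open in any tissue, and 75 of the 78 were rich in them, with an observed-to-expected ratio of at least 0.6, against 47.5% of all protein-coding genes. Among CpG-rich promoters of all genes 97.1% were open in both libraries, so the members' full count is close to the share of promoters with like base composition. The 3 members below that ratio, Mrps9 at 0.505, Mrpl35 at 0.55 and Mrps18a at 0.591, were open too. All 78 also held a peak of the authors' stricter set in both libraries.

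The members' median value was 6.07 in replicate 1 and 8.47 in replicate 2, against 4.64 and 6.44 over all open promoters and 5.91 and 8.42 over CpG-rich ones. Ranked by the geometric mean of both libraries, the members had a median of 7.32 and quartiles of 4.78 and 10.4, against a median of 5.49 and quartiles of 2.22 and 9.56 over all open promoters. The members thus sat in the upper and middle part of the range, with few low values. Of the 78, 49 lay above the median of all open promoters and 26 above the upper quartile, and 2 lay below the lower quartile. Beside CpG-rich promoters, whose median was 7.15, the members' median differed by less than it did between the libraries. In bulk tissue, a site open in fewer cells and a site less open in each cell give the same value and cannot be told apart.

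**Figure D1:**
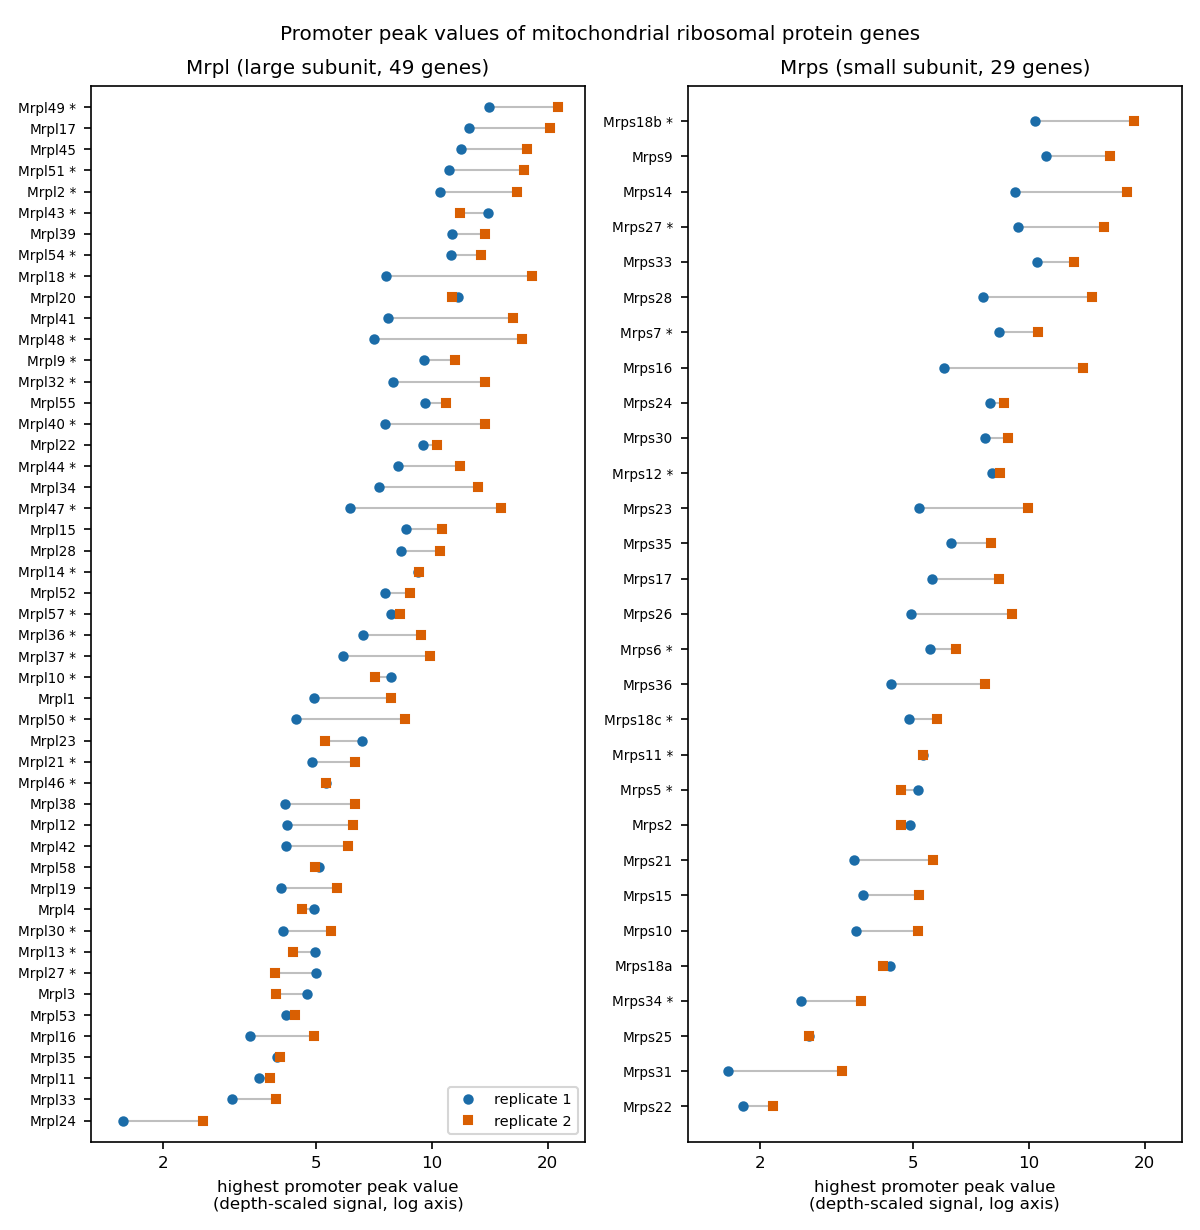
Highest promoter peak value of each mitochondrial ribosomal protein gene, in depth-scaled signal on a log axis, with replicate 1 as circles and replicate 2 as squares. Genes run from high to low by the geometric mean, an asterisk marks a start shared with a coding neighbour, and the values reach from 1.58 (Mrpl24, replicate 1) to 21.2 (Mrpl49, replicate 2).

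Members of the large subunit had a median of 7.08 in replicate 1 and 9.23 in replicate 2, and those of the small subunit 5.3 and 7.99. Their ranges overlapped almost entirely, with 1.58 to 14.1 against 1.66 to 11.1 in replicate 1 and 2.55 to 21.2 against 2.17 to 18.8 in replicate 2. The symbols do not follow the subunit in every case, since Mrps18a and Mrps30 encode proteins that structures of the mammalian ribosome place in the large subunit. Genes were taken as members and placed in a subunit by symbol alone. Whether each encoded protein is part of the ribosome was not checked.

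Among large-subunit genes the highest promoter was that of Mrpl49, which encodes a subunit with no bacterial counterpart. Its value was 14.1 in replicate 1 and 21.2 in replicate 2, from peaks of 2585 and 3610 tags, and it lay at percentile 97.2 of all open promoters. Mrpl17, the counterpart of bacterial L17, followed with 12.5 and 20.2. Mrpl45, whose protein anchors the ribosome to the inner membrane, had 11.9 and 17.7. These 3 led the members by the geometric mean. Mrpl51 reached 11.1 and 17.3, and Mrpl39 11.3 and 13.7. Mrpl54 was at 11.2 and 13.4. Mrpl43 differed from these in being higher in replicate 1, with 14.0 and 11.8. The peak of Mrpl49 is also that of its neighbour Fau. It was centred 4 and 6 bp from Fau's start, against 55 and 65 bp from that of Mrpl49. Mrpl51, Mrpl54 and Mrpl43 share theirs with Ncapd2, Apba3 and Twnk. At its own start Mrpl51 reached 5.10 and 9.06. Within 150 bp of its own start Mrpl54 had no peak in replicate 1 and 5.29 in replicate 2, and Mrpl39 none and 0.998.

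Genes of the catalytic centre, the stalk and the exit tunnel spanned much of the range. Mrpl2, whose protein helps to form the peptidyl transferase centre, was at 10.5 and 16.6. Mrpl3, the counterpart of L3 in the same region, was at 4.75 and 3.93. The proteins of the stalk and its base, where translation factors dock, come from Mrpl10, Mrpl11 and Mrpl12. Mrpl10 had 7.82 and 7.10, Mrpl11 3.55 and 3.8, and Mrpl12, whose protein is also known to bind the mitochondrial RNA polymerase, 4.20 and 6.22. At the mouth of the exit tunnel, Mrpl23 had 6.58 and 5.28 and Mrpl24 1.58 and 2.55, the lowest value of the large subunit in both libraries. Mrpl58, which encodes a release factor built into the large subunit, had 5.10 and 4.97. The peaks of Mrpl2 and Mrpl10 are also those of a neighbouring gene, Klc4 and Lrrc46.

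Among small-subunit genes Mrps18b led by the geometric mean with 10.4 and 18.8, followed by Mrps9, whose protein is in the head of the subunit, with 11.1 and 16.3. Mrps9 was the higher of them in replicate 1. Mrps14 had 9.20 and 18, and Mrps27, which encodes a pentatricopeptide repeat protein, 9.39 and 15.7. Mrps18a, Mrps18b and Mrps18c encode 3 variants of the same bacterial protein. Mrps18a had 4.37 and 4.19 and Mrps18c 4.89 and 5.77, both below Mrps18b in both libraries. The value of Mrps18b comes from a peak beyond the start of its neighbour Ppp1r10, and at its own start it had 6.40 and 11.5. Mrps12, whose protein lies at the decoding centre, was at 8.01 and 8.43, from a peak on the side of its neighbour Sars2. Within 150 bp of its own start it had no peak in replicate 1 and 7.04 in replicate 2.

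The lowest promoter by geometric mean was that of Mrps22, which encodes a protein found in mitochondrial ribosomes only. It had 1.81 in replicate 1 and 2.17 in replicate 2, and the peaks held 333 tags, with a 95% counting interval of 298 to 371, and 370 tags, with an interval of 333 to 410. Mrpl24 and Mrps31 (1.66 and 3.27) were next, and Mrps25 had 2.68 and 2.69. Mrps34 had 2.56 and 3.67, and Mrpl33 3.02 and 3.93. Mrpl35, at 3.96 and 4.04, completed the 8 lowest with Mrpl11. These low members were still well above a usual peak, whose median value over all peaks was 0.729 in replicate 1 and 0.716 in replicate 2.

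Replicate 2 was higher at 66 of the 78 promoters and lower at 12. The ratio of replicate 2 to replicate 1 had a median of 1.32 and quartiles of 1.06 and 1.61, against a median of 1.36 and quartiles of 1.09 and 1.65 over all open promoters, of which 82% were higher in replicate 2. The members' shift between the libraries was close to that of other promoters. The largest ratios were 2.48 at Mrpl47 (6.11 in replicate 1 and 15.1 in replicate 2), 2.41 at Mrpl48 (7.08 and 17.1), 2.38 at Mrpl18 (7.62 and 18.2) and 2.29 at Mrps16 (6.03 and 13.8). The smallest were 0.785 at Mrpl27 (4.99 and 3.91), 0.802 at Mrpl23, 0.827 at Mrpl3 and 0.844 at Mrpl43. Across the 78 members Spearman's rho between the libraries was 0.842, against 0.955 across all 14419 open promoters, which span a wider range of values. Genes are not independent replicates, so both are descriptions of these 2 libraries.

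**Figure D2:**
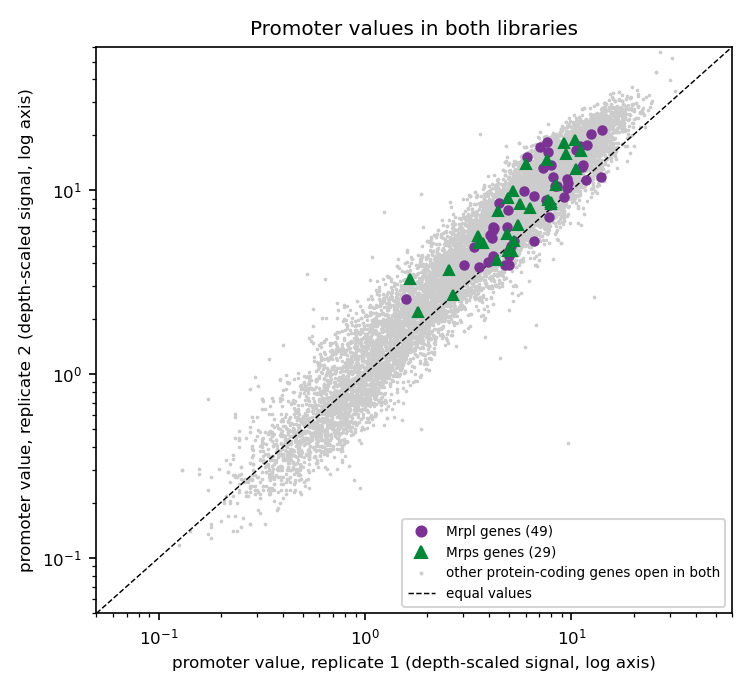
Promoter values in replicate 1 (horizontal) and replicate 2 (vertical), in depth-scaled signal on log axes, for the 49 Mrpl genes (circles), the 29 Mrps genes (triangles) and the other protein-coding genes open in both libraries (grey points). The dashed line marks equal values, 66 of the 78 members lie above it, and none lies in the low tail of the grey cloud.

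Many members share their start region with another gene. A coding transcript of a neighbouring gene started within 500 bp of a member's start at 32 of the 78, or 41%, against 11.5% of all protein-coding genes and 19% of those with CpG-rich promoters. The share was 46.9% of Mrpl genes, 23 of 49, and 31% of Mrps genes, 9 of 29. Genes of the respiratory chain shared starts in 28 of 86 cases, or 32.6%, and cytosolic ribosomal protein genes in 13 of 72, or 18.1%. These are facts of the annotation and rest on no measurement in the libraries.

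The 32 distinct pairs were mostly divergent, with starts that point away from each other on opposite strands, in 22 cases. The divergent starts lay 26 to 464 bp apart with a median of 78 bp, and 13 pairs lay within 100 bp. In 8 pairs the transcripts on opposite strands overlapped at their starts, and in 2, Mrps6 with Slc5a3 and Mrps6 with Gm49711, the neighbour ran on the same strand. In 31 of the 32 pairs the highest peak of the member was also the highest of the neighbour in both libraries, so that the deposited value cannot be assigned to either gene. The exception was Mrps5, at 5.17 and 4.65, whose neighbour Zfp661 had 5.26 and 5.78. Starts this close have overlapping promoter stretches, so a common highest peak follows largely from how pairs and values were defined. The member's highest peak covered both starts in both libraries in 14 pairs, in 1 library in 5 and in neither in 13.

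**Figure D3:**
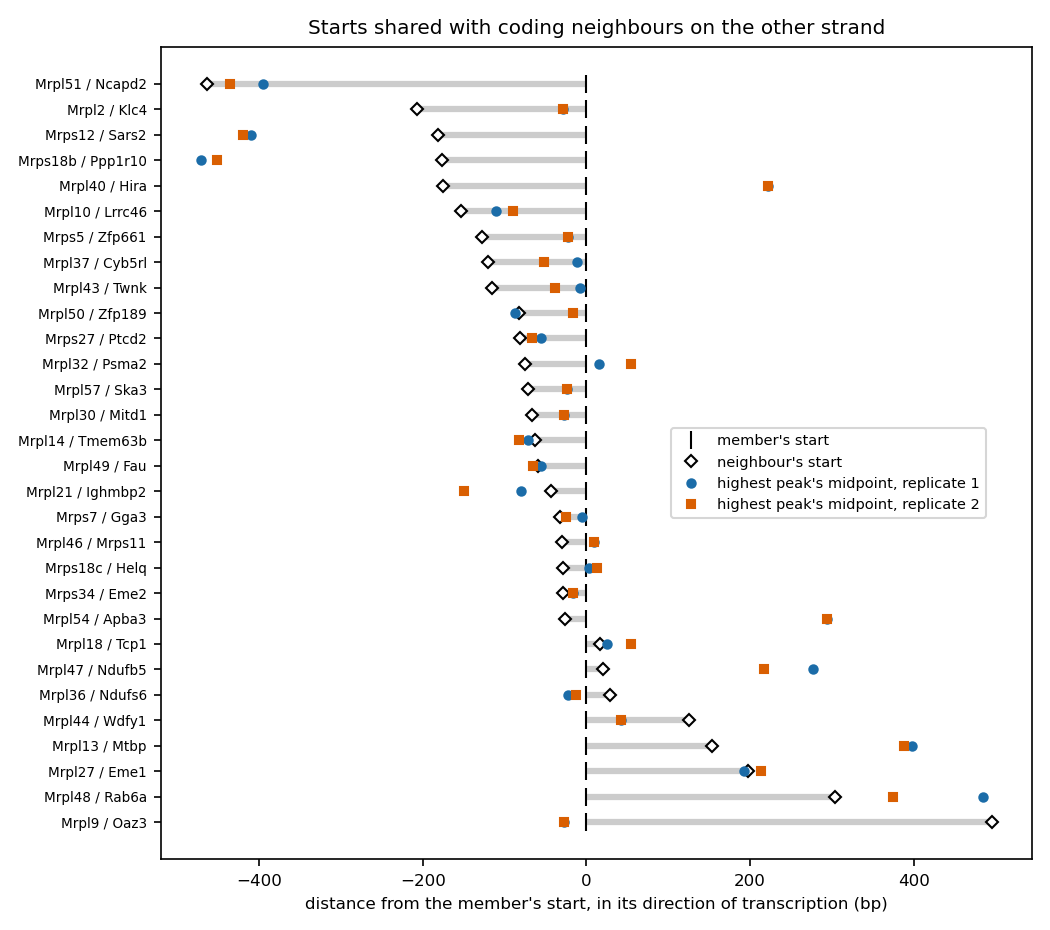
Starts shared with a coding neighbour on the other strand, in bp from the member's start along its direction of transcription, with the neighbour's start as a diamond and the midpoint of the highest peak as a circle (replicate 1) or a square (replicate 2). Diamonds left of 0 are divergent pairs, diamonds right of 0 are overlapping starts, and most peak midpoints lie between or beside the starts, with exceptions such as Mrps18b, Mrps12 and Mrpl54.

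In 1 pair both genes were members. Mrps11 and Mrpl46, of the small and the large subunit, started 30 bp apart in opposite directions under a peak of 5.30 in replicate 1 and 5.32 in replicate 2 that covered both starts. The stretch is shown along the strand of Mrps11, with the first transcribed base of Mrpl46 and then that of Mrps11 in capitals.
Mrps11 (chr7:78783059-78783148, plus strand): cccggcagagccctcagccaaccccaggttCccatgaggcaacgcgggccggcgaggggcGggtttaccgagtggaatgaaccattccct

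The partners of the pairs were as follows. Mrpl43 started 116 bp from Twnk, the helicase that unwinds mitochondrial DNA, and Mrps12 started 182 bp from Sars2, the mitochondrial seryl-tRNA synthetase. Mrpl47 overlapped by 20 bp with Ndufb5 and Mrpl36 by 29 bp with Ndufs6, both subunits of respiratory complex I. Mrps27 lay 81 bp from Ptcd2, another pentatricopeptide repeat gene. Mrpl49, the highest member, started 59 bp from Fau, which encodes a protein of the cytosolic ribosome joined to a ubiquitin-like protein.

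The other divergent partners span many functions. Mrpl54 started 26 bp from Apba3, Mrps18c 29 bp from the DNA helicase gene Helq, Mrps34 29 bp from Eme2, Mrps7 32 bp from Gga3 and Mrpl21 43 bp from Ighmbp2. Mrpl14 lay 63 bp from Tmem63b, Mrpl30 66 bp from Mitd1, Mrpl57 71 bp from the kinetochore gene Ska3 and Mrpl32 75 bp from the proteasome subunit gene Psma2. Farther partners were Zfp189 at 83 bp from Mrpl50, Cyb5rl at 120 bp from Mrpl37, Lrrc46 at 153 bp from Mrpl10, the histone chaperone gene Hira at 175 bp from Mrpl40, Ppp1r10 at 177 bp from Mrps18b, Klc4 at 207 bp from Mrpl2 and the condensin gene Ncapd2 at 464 bp from Mrpl51. Overlapping starts joined Mrpl18 with the chaperonin gene Tcp1, Mrpl44 with Wdfy1, Mrpl13 with Mtbp, Mrpl27 with Eme1, Mrpl48 with Rab6a and Mrpl9 with Oaz3. The overlaps ran from 16 bp at Tcp1 to 496 bp at Oaz3.

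The 32 members that shared a start had a median value of 8.72 by the geometric mean and the 46 that did not had 6.06. Of the 12 highest members 7 shared a start, namely Mrpl49, Mrps18b, Mrpl51, Mrpl2, Mrpl43, Mrpl54 and Mrps27, against 1 of the 8 lowest, Mrps34. A shared start also puts the peaks of a second gene into the stretch examined, and no test was made of this difference. Of the members without a coding neighbour, 4 had a noncoding transcript start on the opposite strand within 500 bp, at Mrpl55, Mrps26, Mrps21 and Mrpl53, and 42 had neither.

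The highest peak usually lay over the start itself. Its midpoint was within 150 bp of an annotated start of the same gene at 67 members in replicate 1 and 66 in replicate 2, and its median position was -15.5 and -16.5 bp from that start, where negative values lie before it. The peak's median width was 200 bp in both libraries. A single peak overlapped the promoter at 57 members in replicate 1 and 55 in replicate 2, and the others held at least 2.

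At 11 members the highest peak was centred farther than 150 bp from every annotated start of the gene in both libraries, and 8 of these shared a start. At Mrps18b it was centred 471 and 451 bp before the start, beyond the start of Ppp1r10, and the highest peak within 150 bp of its own start was 6.40 and 11.5. At Mrpl51 it was centred 395 and 435 bp before the start, close to the start of Ncapd2, and the peak at its own start reached 5.10 and 9.06. Mrps12, Mrpl54, Mrpl48, Mrpl47, Mrpl13 and Mrpl27 were the other sharing members. The 3 without a coding neighbour were Mrpl39, Mrpl34 and Mrps36. At Mrpl39 the peak lay 432 bp after the annotated start in both libraries but at -66 bp from the start given by RefSeq. Which start these peaks belong to was not tested, and the ranks of the 11 members rest on them.

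Mrpl48 and Mrpl36 had separate open starts more than 1000 bp apart. At Mrpl48 the principal start had 4.99 and 5.24, a start at -8324 bp 2.48 and 3.77, and a start at -24892 bp, shared with the Golgi trafficking gene Rab6a, 7.08 and 17.1. The principal start of Mrpl36 had 4.71 and 5.04, below the 6.62 and 9.34 of the start at -2475 bp that it shares with Ndufs6. In both genes the start shared with the neighbour gave the highest value in both libraries.

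Around the principal start, the bases listed by the authors at a false discovery rate (FDR) under 0.05 covered a median of 69.2% of the positions within 500 bp in replicate 1 and 69.7% in replicate 2. The same median was 55.3% and 53.9% over all protein-coding genes, whether open or not, and over CpG-rich promoters the mean of both libraries had a median of 82.1%, against 70.5% for the members. Members thus had less of the surrounding sequence listed than CpG-rich promoters as a whole. In the 25 bp just before the start, peaks covered 86% of member promoters in replicate 1 and 92% in replicate 2, against 72.3% and 73% of all open promoters. Open respiratory chain promoters were close to the members, with 91.3% and 90.1%, and those of cytosolic ribosomal proteins had 79.8% and 83.9%. From 300 to 324 bp after the start, members were below all open promoters, with 18.3% and 15.4% against 27.8% and 23.3%. Respiratory chain promoters were lower still there, with 11% and 10.6%, and cytosolic ribosomal ones had 17.7% and 20.6%.

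**Figure D4:**
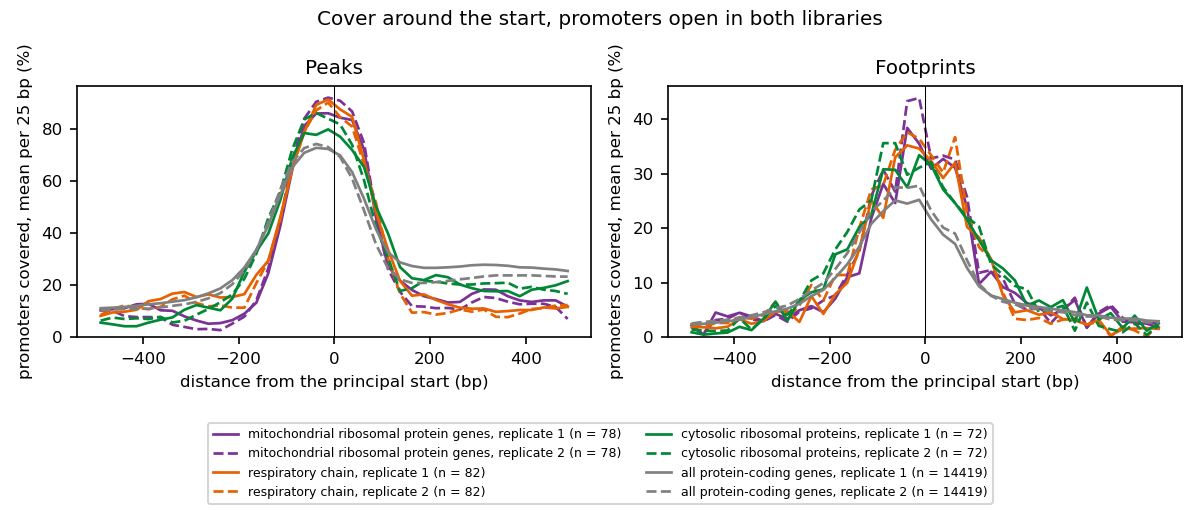
Mean share of promoters covered by peaks (left) and by footprints (right) in steps of 25 bp, by distance from the principal start, in promoters open in both libraries, with solid lines for replicate 1 and dashed lines for replicate 2. Cover is highest close to the start in every gene list, and the peak cover of mitochondrial ribosomal protein genes is above that of all protein-coding genes at the start and below it from 200 bp after it.

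All 78 promoters held a footprint in both libraries, against 64.3% of all protein-coding genes, or 14056, beside the 14419 that were open in both. Among CpG-rich promoters the share was 96.2%, close to that of the members. The members held 565 footprints in replicate 1, with a median of 7 and a range of 3 to 33, and 572 in replicate 2, with a median of 6 and a range of 2 to 25. Of these, 337 were found in both libraries with an overlap of at least 50% of each, and 75 members, or 96.2%, held such a shared footprint. The share was 92.5% of CpG-rich promoters, 93% of respiratory chain genes, 98.6% of cytosolic ribosomal protein genes and 59.9% of all. The members Mrps26, Mrps21 and Mrps34 held no shared footprint. Mrpl48, with its 3 separate starts, held the most with 17, followed by Mrpl34 with 11, Mrps18b with 10 and Mrpl23 with 9, and then by Mrpl17, Mrpl45, Mrpl40, Mrps7, Mrpl36 and Mrpl38 with 8 each. Footprint cover was highest from 50 to 26 bp before the start in replicate 1, at 38.4% of member promoters, and in the 25 bp before it in replicate 2, at 43.9%, against 24.5% and 27.8% of all open promoters there. In the same places it was 35.2% and 36.4% for respiratory chain promoters and 27.5% and 31.1% for cytosolic ribosomal ones.

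Words of NRF1, the ETS family or YY1 were present at 51 of the 78 promoters, or 65.4%, against 32.7% of CpG-rich promoters and 19.2% of all. No word of the 3 was found at 27 members, and 13 held at least 2 of the kinds. Of the 13 words searched, at least 1 lay in a footprint of both libraries at 43 members, or 55.1%, against 21.5% of all protein-coding genes, closed promoters included.

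The ETS word stood at 36 members, 46.2%, against 40.3% of cytosolic ribosomal protein genes, 23.3% of respiratory chain genes, 19.5% of CpG-rich promoters and 11.6% of all. Of the 42 ETS words at members, 27 lay within 50 bp of the start and 41 within 100 bp. The 19 members with an ETS word in footprints of both libraries, 24.4% against 3.62% of all genes, were Mrpl3, Mrpl20, Mrpl23, Mrpl30, Mrpl33, Mrpl34, Mrpl43, Mrpl48, Mrpl52, Mrpl53, Mrpl57, Mrpl58, Mrps16, Mrps18b, Mrps18c, Mrps22, Mrps23, Mrps33 and Mrps35. Among cytosolic ribosomal protein genes, where the word was about as common, 8.33% had it in such a footprint. Among respiratory chain genes 11.6% did, and among CpG-rich promoters 6.84%. Of the promoters with the word, 52.8% of members held it in such a footprint, near the 50% of respiratory chain genes. The same share was 35% for CpG-rich promoters, 31.2% for all and 20.7% for cytosolic ribosomal protein genes. The members with the word ranged from Mrps18b, among the highest promoters, to Mrps22, the lowest, and their median value of 6.29 was below the 8.05 of members without it. Over all open promoters that order was the other way, with 7.35 against 4.95.

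The NRF1 word stood at 13 members, 16.7%, against 19.8% of respiratory chain genes, 9.72% of cytosolic ribosomal protein genes, 11.5% of CpG-rich promoters and 6.1% of all. All 16 of these words lay in a footprint of at least 1 library, and 13 in footprints of both. Of the promoters with the word, 84.6% of members held it in a footprint of both libraries, against 81.5% of CpG-rich promoters and 79.7% of all, so that the members' rate was near the background. The 11 members with such a word in both were Mrpl9, Mrpl12, Mrpl14, Mrpl17, Mrpl30, Mrpl32, Mrpl44, Mrpl45, Mrpl57, Mrps9 and Mrps33, among them 3 of the 12 highest promoters, Mrpl17, Mrpl45 and Mrps9. The other 2 were Mrps21 and Mrps26, with footprints over the word in replicate 1 alone. Members with the word had a median value of 9.83 and those without it 6.86, and over all open promoters the medians were 9.62 and 5.1. At Mrpl45, as the printed stretch shows, the 3 words began at positions -120, -38 and 15, counted from 0 at the first transcribed base.

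The YY1 word stood at 15 members, 19.2%, against 16.3% of respiratory chain genes, 13.9% of cytosolic ribosomal protein genes, 5.96% of CpG-rich promoters and 3.69% of all. Of the 15 words, 12 lay after the start, at a median of 23 bp into the transcript, the same median as over all genes. At 9 members the word held the annotated start codon of the gene, as in Mrps10 and Mrps18a, whose printed stretches carry it in capitals, and likewise in Mrpl35, Mrpl38, Mrpl46, Mrpl49, Mrps18b, Mrps24 and Mrps27. That is 60% of the 15 words, against 38.3% of the 822 YY1 words over all protein-coding genes. Words were counted per gene, and Mrpl46 and Mrps11 hold the same copy, after the start of Mrpl46 and before that of Mrps11. In footprints of both libraries the word lay at Mrpl37, Mrpl42, Mrps10 and Mrps18a, or 5.13% of members. The share was 5.81% of respiratory chain genes, 2.78% of cytosolic ribosomal protein genes, 1.55% of CpG-rich promoters and 0.783% of all. Of the promoters with the word, 26.7% of members held it in such a footprint, near the 26.1% of CpG-rich promoters. For respiratory chain genes this was 35.7%, and for all genes 21.2%.

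**Figure D5:**
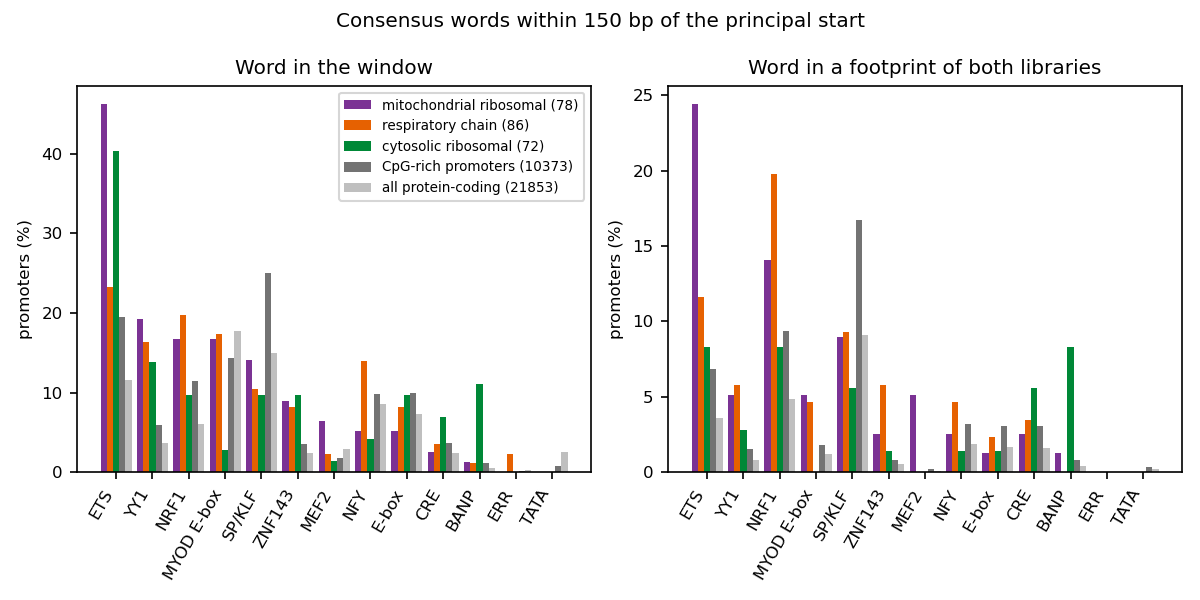
Share of promoters with each consensus word within 150 bp of the principal start (left) and with the word in a footprint of both libraries (right), in percent. Bars run from mitochondrial ribosomal protein genes through respiratory chain genes, cytosolic ribosomal protein genes and CpG-rich promoters to all protein-coding genes, and the members' highest bars are the ETS word at 46.2% and, in footprints, 24.4%.

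The other words were each found at 13 members or fewer. The ZNF143 word stood at 7 members, 8.97% against 2.43% of all, 8.14% of respiratory chain genes and 9.72% of cytosolic ribosomal protein genes. It lay in footprints of both libraries at Mrpl42 and Mrpl50, or 2.56% against 0.829% of CpG-rich promoters and 0.54% of all. The cAMP response element stood at Mrpl16 and Mrpl49, in footprints of both libraries each time. It was found at 2.56% of members, 3.66% of CpG-rich promoters and 2.38% of all, and in such footprints at 2.56%, 3.08% and 1.62%. The NFY word stood at 4 members, 5.13% against 9.86% of CpG-rich promoters and 8.58% of all. It lay in footprints of both libraries at Mrpl2 and Mrpl50, or 2.56% against 3.2% and 1.86%. For neither of these words did the members' share exceed that of CpG-rich promoters. The BANP word, TCTCG joined to its own reverse complement, stood at Mrpl57 alone, 1.28% against 0.567% of all and 11.1% of cytosolic ribosomal protein genes. The GC-box word GGGGCGGGG of SP and KLF factors was found at 11 members, 14.1%, against 25% of CpG-rich promoters and 15% of all. The E-box CAGCTG that the muscle regulator MYOD prefers was found at 13, 16.7% against 14.4% of CpG-rich promoters and 17.7% of all. It lay in footprints of both libraries at 4, or 5.13%, against 1.78% of CpG-rich promoters and 1.23% of all. Respiratory chain genes were close to the members, with the word at 17.4% and in such a footprint at 4.65%. At 2 of the 4 members, Mrpl45 and Mrpl9, the word shares 1 base with an NRF1 word. For MEF2, another muscle regulator, a loose word was searched, CTA and TAG separated by 4 free bases that were not limited to A or T. This word stood at 5 members, 6.41% against 1.79% of CpG-rich promoters and 2.86% of all. It lay in footprints of both libraries at 4, Mrpl28, Mrpl32, Mrpl46 and Mrps11, or 5.13% against 0.193% of CpG-rich promoters and 0.114% of all, and Mrpl46 and Mrps11 hold the same copy. The general E-box CACGTG stood at 4 members, 5.13% against 10% of CpG-rich promoters and 7.29% of all. No member held the ERR word TCAAGGTCA, found in 0.32% of all promoters, or a TATAAA word 40 to 20 bp before the start on the gene's strand, found in 2.48%.

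Other genes of the same pathway were open as well, and the proteins of the ribosome that carry other symbols were no exception. All 5 of these were open in both libraries, with Aurkaip1 at 9.08 and 12.4, Chchd1 at 9.08 and 8.53, Dap3 at 6.45 and 10.2, and Gadd45gip1 lowest at 0.832 and 1.13. Of 23 genes for assembly of the ribosome, 22 were open in both libraries, with a median geometric mean of 7.46. Rpusd3 led them with 18.9 and 19.4, followed by Noa1 with 12.5 and 17.3 and Mtg1 with 12 and 13, and Mtg2, which encodes a GTPase of the large subunit's assembly, had no peak in replicate 1 and 0.534 in replicate 2.

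All 14 genes of the list of mitochondrial translation factors that the annotation holds by symbol were open in both libraries, with a median of 7.37, led by Mtrf1l (8.27 and 16.0), Oxa1l (10.3 and 10.3) and Tsfm (10.7 and 9.24). The 17 mitochondrial tRNA synthetase genes were all open with a median of 8.22, led by Fars2 (10.3 and 15.1), Mars2 (10.3 and 14.0) and Pars2 (8.90 and 14.3). The 8 genes that keep and transcribe mitochondrial DNA were all open with a median of 10.1, led by Polg (10.5 and 16.4), Twnk (14.0 and 11.8) and Tfb2m (8.37 and 17.3). The value of Twnk is that of the peak it shares with Mrpl43. Beside the members' median of 7.32, the 72 cytosolic ribosomal protein genes were all open with a median of 8.9, and 82 of the 86 respiratory chain genes were open with a median of 8.25. No test was made between these lists, and at least some of their values come from shared peaks.

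Replicate 1 had 123255 peaks and 310961 footprints, and replicate 2 had 150088 and 373154. All 12 promoters of skeletal muscle markers, such as Ckm and Mylpf, were open in both libraries, with values of 1.05 to 8.48 in replicate 1 and 2.58 to 11.5 in replicate 2. Of 12 markers of endothelium, fibroblasts, macrophages and Schwann cells 7 were open in both, and of 6 markers of hepatocytes and lymphocytes none was. The part of other cells in the members' values was not tested.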

How the data were processed

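DNase-seq of gastrocnemius was deposited for 2 libraries of 1 group. Per the notes that accompany the samples, peaks, footprints and an FDR track were made for each library on its own, from filtered alignments to mm10, and replicates were not pooled. No aligner, caller or version is named, such details being not given in the sources used here. Whether reads from CAST alleles mapped less often to the B6 reference was not analysed here.

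As deposited, peak values are a signal that the authors scaled to library depth. Of the values, 100% in both libraries were whole multiples of a step, 0.00544 in replicate 1 and 0.00587 in replicate 2, within 0.05 of a step. Taken as 1 tag per step, the median peak held 134 and 122 tags. Tags can include PCR copies, so intervals (exact Poisson, 95%) cover counting error only. The FDR, a p-value type of number, was deposited by the authors for positions under 0.05. Footprints carry the same p-value type of number, 0.01, on every line as deposited, so only their positions were used. Of the 2 peak sets per library, the wider was used.

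Starts of coding transcripts came from GENCODE M21, which left out 85 of 21938 protein-coding genes without a coding transcript. The principal transcript was chosen by APPRIS level, transcript support level and length. Sequences were read from GRCm38.p6, which has the primary chromosomes of mm10, and RefSeq starts, matched for 69 members, came from RefSeq on the same assembly. CpG ratios were taken over 500 bp on either side of the principal start. Words were searched as listed in the report, the MEF2 word being CTA and TAG separated by 4 free bases. With 1 group and no condition, no test was made, and lists are described beside all protein-coding genes.

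The members and lists were chosen with earlier results of these data known. Named members were the 12 highest and 8 lowest, the 4 highest and 4 lowest ratios, those with shared starts, shared footprints, words in footprints or separate starts, and, from each other list, the 3 highest and those without a peak in both libraries. Mrps30, Mrpl10 as a stalk protein, and Gadd45gip1 with 3 genes of its list were named after their values were seen. The symbol Mtrfr was not matched. Python 3.11.15 was used with numpy 2.4.6, pandas 2.3.3, scipy 1.17.1, pysam 0.24.0 and matplotlib 3.10.9, and the overlap and word searches were tested on simulated data. The alternatives tried were other promoter widths, the stricter peaks, principal starts only, single libraries, a stricter FDR and other word windows.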

Additional observations from a re-analysis of the deposited data

How the results depend on the processing

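The alternatives were run on the members only, so the comparisons with other genes were not repeated under them. The median cover of 70.5% fell to 61.4% at an FDR under 0.001 and was 98.6% within 250 bp of the start, and with each library left out it was 69.2% to 69.7%. Counted among the members that share no start with a coding neighbour, 46 of 46 promoters were open in both libraries and their median value was 6.06. The members' median of 7.32 was 6.98 within 250 bp of a start and by principal starts only, both below the 7.15 that CpG-rich promoters had in the setting reported. With each library left out the median value was 6.07 to 8.47, a spread wider than the distance between 7.32 and 7.15. Open promoters numbered 76 within 250 bp of a start and 78 in every other setting tried over all members. Members sharing a start numbered 29 within 250 bp, 34 within 1000 bp and 25 by principal starts only, against 32. No paired analysis was possible because there was 1 group. Counts of single words moved with the window and the footprint rule: within 500 bp MYOD E-box words were found at 28 members against 13, MEF2 words at 14 against 5 and CACGTG words at 12 against 4, and in footprints of both libraries ETS words at 19 against 36, YY1 words at 4 against 15 and CACGTG words at 1 against 4. Depth limits which low peaks and footprints were called, and the cause of the difference between libraries was not tested.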

Other observations

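The 5 annotated pseudogenes of this family, Mrpl23-ps1, Mrpl48-ps, Mrps36-ps1, Mrps36-ps2 and Mrps36-ps3, had no peak at their start or over their body in either library.

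Peaks also lay inside the members' gene bodies, away from the starts, at 17 members in both libraries. The share over all protein-coding genes is not given here, so it cannot be told whether 17 is many or few. Longer genes leave more room for such peaks, and gene length was not taken into account. Mrps27 held the most together with Mrps28 in replicate 2, with 7 peaks of up to 4.93 in replicate 1 and 9 peaks of up to 9.61 in replicate 2. Mrps28 held 5 peaks of up to 0.886 and 9 of up to 1.95. Mrpl23 held 1 peak of 4.81 in replicate 1 and 2 of up to 2.86 in replicate 2, so that its inner peak was lower in replicate 2 as its promoter was.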
